A study of Homo sapiens with 16 samples.

Results

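Gene expression in libraries labelled Huh-7, a human hepatoma cell line, was compared between cultures given cinobufagin for 12 h and untreated cultures. The comparison used the 3 untreated Huh-7 libraries and the 3 libraries of Huh-7 given cinobufagin at 5 µmol/L for 12 h, chosen by their titles, which are 6 of the 16 libraries of the series. The other 10 libraries are 3 of Huh-7 after 24 h and, labelled as the hepatoma line HepG2, 1 untreated, 3 after 12 h and 3 after 24 h. They entered the fit, where they help to estimate the spread of each gene. The labels do not say whether untreated cultures got a solvent or how long they were kept, so the drug cannot be told apart from these. Each value was an expected count, RSEM's estimate of the reads from a gene. The 6 libraries listed 15934 genes of 16697 in the series.

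Cinobufagin is a cardiotonic steroid of toad venom. Such steroids bind the Na,K-ATPase, the pump that moves sodium out of the cell and potassium in, and stop it, so that sodium rises, potassium falls and calcium handling changes. In human cells these shifts are known to act on kinase signalling, protein synthesis and the transcription of inducible genes. Inducible or immediate early genes encode transcription factors, phosphatases and cytokines whose short-lived mRNAs are made soon after a signal and then removed.

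The 6 libraries held 9543048 to 9856694 expected counts, so that an unlisted gene may still have up to 3 counts, which is 0.304 to 0.314 CPM (counts scaled to the library total). This bound covers counting error only. Untreated libraries listed 14833.67 ± 38.99 genes (SD, n = 3) and the 12 h libraries 14110.33 ± 28.11, and genes at 10 CPM or more numbered 9751 to 9773 and 8067 to 8079. Defining hepatocyte markers did not bear out the label: by CPM without further scaling AFP, APOA1 and TF, which hepatocytes secrete, stood at 0.1 CPM or less in each of the 6 libraries, and APOB, TTR and SERPINA1 were not listed. Of 12 hepatocyte markers 9 were listed and 3 reached 10 CPM in untreated libraries, namely CEBPA, HNF4A and RBP4. Their summed level ran from 111.8 to 121.3 CPM untreated and from 32.8 to 34.2 CPM at 12 h. Markers of cholangiocytes and simple epithelium summed to 2271.4 to 2349.5 and 1459.8 to 1497.6 CPM, with KRT8, KRT18 and KRT7 the most abundant. KRT19 stood at 0.31 CPM or less in each library. Of these markers only EPCAM was called lower by the test below, and the sums are of CPM without further scaling. Fibroblast markers summed to 55.2 to 61.8 and 18.8 to 21.7 CPM, endothelial ones to 4.7 to 4.9 and 2.4 to 4.5 CPM, and blood markers to 1.7 to 1.9 and 2.6 to 3.9 CPM. The part of these levels in the results was not tested. The name Huh-7 below is that of the labels. In bulk RNA, fewer cells of a type and less RNA per cell cannot be told apart.

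Of 13633 genes tested with edgeR's quasi-likelihood test, 2295 (16.8%) were higher at 12 h and 3698 (27.1%) lower, 44% in either direction. A call needed an adjusted p (Benjamini-Hochberg) below 0.05 and at least a 2-fold change, and levels are CPM on the TMM scale, which corrects library size for differences in composition. At least 4-fold changes numbered 602 upward and 1760 downward. The groups did not overlap for 2267 of the higher and 3656 of the lower genes, and for 11530 of all 13633 tested genes. The median called-higher gene went from 27.14 to 88.69 CPM and the median called-lower gene from 13.97 to 3.28 CPM. The split depended on the scaling: 38.3% of called genes were higher with TMM, 26.8% with upper-quartile scaling, 21.3% with plain library size and 47.3% after division by the library median. These scalings moved the median log2 change of all tested genes from -0.10 to -0.37, -0.51 and 0.08, and changes below are relative to the TMM scale. Counts of list members below are to be read against the 16.8% higher and 27.1% lower of all tested genes.

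**Figure D1:**
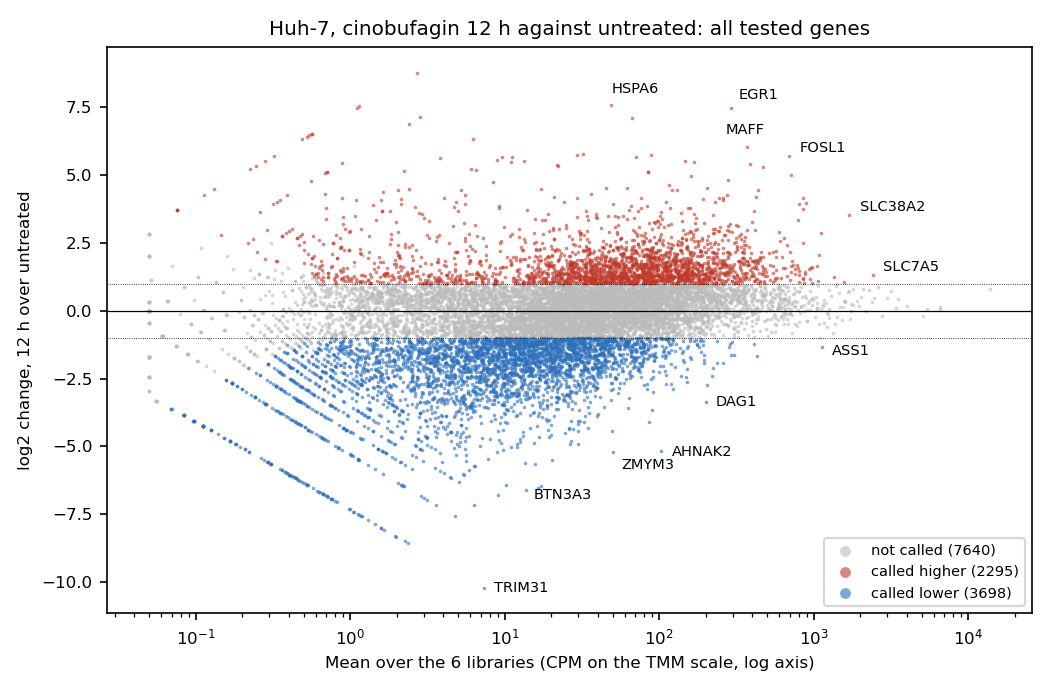
Log2 change at 12 h over untreated (y axis) against the mean CPM over the 6 libraries (x axis, log scale) for the 13633 tested genes, with called genes in colour. Dotted lines mark 2-fold changes. The 3698 called-lower genes lie mostly at low to middle levels and the 2295 called-higher genes mostly at middle to high levels.

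Rises were commonest among abundant genes and falls among scarce ones. The tested genes were ranked by their mean over the 6 libraries and cut into 5 equal classes. In the most abundant class, 83.75 CPM or more, 33.3% rose and 4.33% fell. In the next class, from 34.17 CPM, 21.5% rose and 16.3% fell. In the middle class the shares were 12.1% and 28.9%. In the class between 3.83 and 14.4 CPM, 6.93% rose and 43.3% fell, and in the least abundant class 10.3% and 42.8%. The mean holds the 12 h libraries, so a gene that rose also moved up in this order. By weighted transcript length the share that rose went from 13.5% in the shortest of 5 classes to 20.4% in the longest, and the share that fell was between 23% and 30.6%.

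Above a 6-library mean of 10 CPM, the genes that rose most were the chaperone HSPA6, the transcription factors EGR1, FOS, MAFF, FOSB, FOSL1 and DLX2, the interleukin 6 gene IL6, the IL-33 receptor gene IL1RL1 and the glutathione-degrading enzyme CHAC1. HSPA6, a strictly stress-inducible HSP70, stood at 0.5, 0.51 and 0.5 CPM in the untreated libraries and at 94.96, 100.1 and 97.32 CPM at 12 h. EGR1, an immediate early zinc finger factor, stood at 2.74, 2.72 and 4.14 CPM untreated and at 551.3, 605.0 and 573.9 CPM at 12 h. FOS, the AP-1 subunit, read 0.83, 0.76 and 1.24 CPM against 131.2, 139.3 and 125.0 CPM. In all these genes every treated library lay far above every untreated one, with changes of 190-fold for HSPA6 (log2 7.57, SE 0.129, edgeR adjusted p = 1.13e-31), 179-fold for EGR1 (log2 7.49, SE 0.081, adjusted p = 5.11e-37) and 137-fold for FOS (log2 7.10, SE 0.117, adjusted p = 4.26e-32). MAFF, a small MAF factor without an activation domain, read 11.61, 9.18 and 12.18 CPM untreated and 725.2, 723.4 and 726.1 CPM at 12 h, a 65.8-fold rise. FOSB, another AP-1 subunit, read 2.57, 3.4 and 3.81 CPM against 175.2, 175.3 and 173.5 CPM (53.4-fold). FOSL1, which encodes the AP-1 subunit FRA-1, read 28.29, 25.07 and 25.69 CPM against 1301.4, 1427.1 and 1346.3 CPM (51.5-fold). FOSL1 thereby joined the 10 genes with the largest gain in CPM. IL6 read 1.0, 0.76 and 1.41 CPM against 60.4, 56.68 and 55.73 CPM (53.8-fold). IL1RL1 read 1.33, 0.68 and 1.41 CPM against 64.87, 62.63 and 61.49 CPM (54.6-fold). DLX2, a homeobox factor of forebrain and face development, read 0.33, 0.34 and 0.58 CPM against 22.15, 24.23 and 19.78 CPM (51.2-fold). For each of these genes the treated libraries differed among themselves far less than the groups did. CHAC1, a known target of the stress factor ATF4, read 2.32, 2.97 and 2.9 CPM against 145.0, 137.8 and 132.0 CPM (50.4-fold).

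Promoter sequences were taken from RefSeq's GRCh38.p14 table as the 250 bases before to the 50 after the annotated start of a gene, whereas the deposited values rest on hg19. They are shown, 5′ to 3′ on the strand of the gene, for 5 of the most raised genes because each holds a motif of another kind in this window. The capitals mark a pair of CArG boxes, the serum response factor motif, in EGR1 (chr5:138465229-138465528, plus strand), the cyclic AMP response element TGACGTCA in MAFF (chr22:38201744-38202043, plus strand), and a kappaB site, the NF-kB motif, in IL6 (chr7:22726950-22727249, plus strand). In HSPA6 (chr1:161524290-161524589, plus strand) they mark 2 AP-1 sites (TGANTCA) and 3 heat shock units (GAANNTTC or TTCNNGAA), of which a pair overlaps. In CHAC1 (chr15:40953221-40953520, plus strand) they mark a C/EBP-ATF element (TGATGNAA), which lies on the other strand.
EGR1: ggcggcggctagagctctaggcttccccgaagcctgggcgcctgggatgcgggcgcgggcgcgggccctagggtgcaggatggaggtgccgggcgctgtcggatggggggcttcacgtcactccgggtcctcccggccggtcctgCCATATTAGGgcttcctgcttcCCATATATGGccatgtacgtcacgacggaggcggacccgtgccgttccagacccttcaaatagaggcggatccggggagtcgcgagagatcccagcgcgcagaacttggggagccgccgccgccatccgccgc
MAFF: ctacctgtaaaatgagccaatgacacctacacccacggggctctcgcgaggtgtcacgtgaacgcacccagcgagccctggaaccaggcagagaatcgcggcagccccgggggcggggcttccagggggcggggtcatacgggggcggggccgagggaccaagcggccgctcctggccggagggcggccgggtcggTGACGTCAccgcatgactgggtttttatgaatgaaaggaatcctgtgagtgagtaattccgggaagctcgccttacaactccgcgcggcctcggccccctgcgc
IL6: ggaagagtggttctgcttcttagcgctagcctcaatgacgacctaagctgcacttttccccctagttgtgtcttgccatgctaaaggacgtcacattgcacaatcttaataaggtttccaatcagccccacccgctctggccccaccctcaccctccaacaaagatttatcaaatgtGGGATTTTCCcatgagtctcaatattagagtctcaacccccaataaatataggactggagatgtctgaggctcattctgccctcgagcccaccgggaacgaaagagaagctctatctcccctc
HSPA6: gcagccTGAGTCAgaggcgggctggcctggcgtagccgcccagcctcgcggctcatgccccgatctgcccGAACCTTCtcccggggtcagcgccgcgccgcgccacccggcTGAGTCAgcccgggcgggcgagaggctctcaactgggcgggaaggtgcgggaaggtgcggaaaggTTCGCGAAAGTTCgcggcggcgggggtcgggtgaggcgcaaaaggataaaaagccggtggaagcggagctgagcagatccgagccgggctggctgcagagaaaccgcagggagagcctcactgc
CHAC1: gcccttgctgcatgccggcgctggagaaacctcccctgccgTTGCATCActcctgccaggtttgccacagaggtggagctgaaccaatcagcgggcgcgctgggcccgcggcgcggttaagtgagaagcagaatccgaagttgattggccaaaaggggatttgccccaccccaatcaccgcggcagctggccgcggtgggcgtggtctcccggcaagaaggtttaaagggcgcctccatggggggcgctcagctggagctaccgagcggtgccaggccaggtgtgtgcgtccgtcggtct
A match is a description of letters and shows no binding. FOSL1 had no entry in the promoter table, and DLX2 held none of the 9 motifs searched.

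Over all genes, 11036 of the 13633 tested were matched to a promoter of that table, and each motif was searched on both strands. The TATA box (TATAAA) stood in 75 of 484 promoters of genes raised at least 4-fold (15.5%), in 8.84% of raised genes, in 5.69% of genes that were not called and in 4.46% of lowered genes, against 5.89% of all tested. Without the clustered histone genes the first 2 shares were 12.5% and 7.83%. The cyclic AMP response element stood in 5.99% of genes raised at least 4-fold, 4.66% of raised genes, 3.23% of genes not called, 2.21% of lowered genes and 1.66% of genes lowered at least 4-fold. Of all tested genes 3.2% held it, and without the clustered histone genes its first 2 shares were 5.12% and 4.44%. CArG boxes stood in 1.03% of genes raised at least 4-fold and in 1.01% of all tested. kappaB sites stood in 7.23% and 6.60%, AP-1 sites in 7.23% and 4.76%, with 5.76% of genes lowered at least 4-fold, and heat shock units in 12.6% and 9.99%. The C/EBP-ATF element stood in 2.89% and 1.72%. The ETS site CCGGAAGT stood in 6.61% of genes raised at least 4-fold, in 9.32% of raised genes and in 5.26% of genes lowered at least 4-fold, and CCAAT in 44.2%, 39.2% and 35.9%. Of all tested genes 8.41% held the ETS site and 36.7% CCAAT. Without the clustered histone genes the first 2 shares of CCAAT were 40.8% and 38.1%. Over all 27305 promoters of the table the TATA box stood in 12%, the cyclic AMP response element in 1.98%, AP-1 sites in 7.76%, heat shock units in 13.7% and the C/EBP-ATF element in 3.67%. The last 3 shares lie above those of genes raised at least 4-fold. These shares carry no test.

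**Figure D2:**
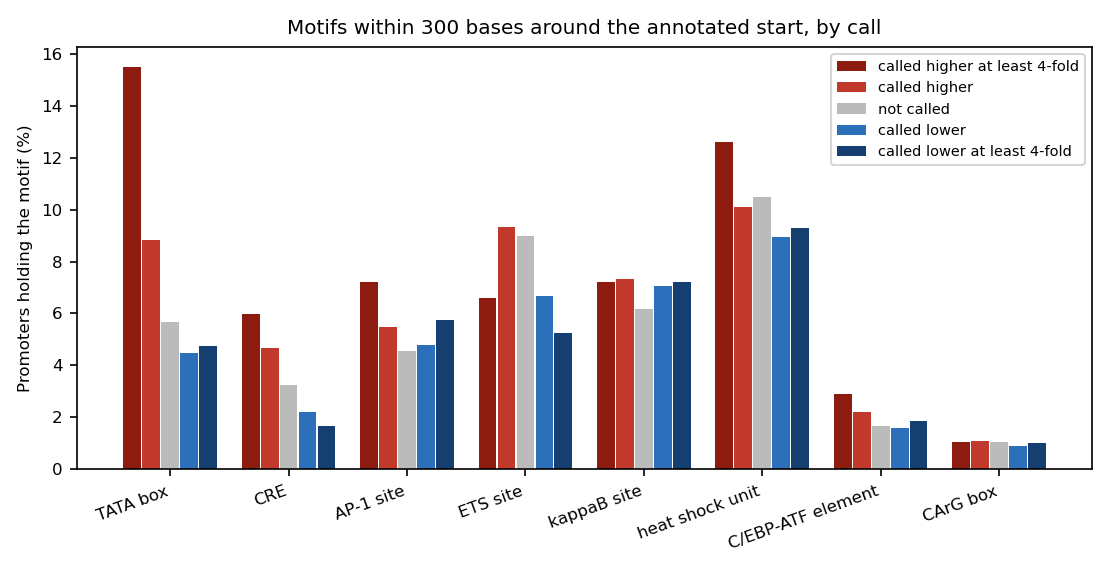
Percent of promoters holding a motif (y axis) for 8 motifs (x axis), with bars for genes raised at least 4-fold, raised, not called, lowered and lowered at least 4-fold. TATA box shares are 15.5% in the first class and 4.75% in the last, those of the cyclic AMP response element (CRE) 5.99% and 1.66%, and those of CArG boxes 1.03% and 1.01%.

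Inducible gene families held many raised members. All 7 tested EGR and NR4A factors were higher (median log2 change 3.58 against -0.10 over all tested genes), NR4A being orphan nuclear receptors of the immediate early response. By limma on log2(FPKM + 1) 4 of the 7 passed, and in the 6 libraries alone 5. NR4A3 rose 12-fold, NR4A2 7.68-fold and NR4A1 4.74-fold, the last from 111.7 ± 1.22 to 529.5 ± 23.28 CPM (SD, n = 3). Of 22 AP-1, ATF and MAF factors 17 rose and 1 fell. Among 15 Kruppel-like factors 6 rose and none fell, by plain library size 6 and 2. KLF4, a reprogramming factor, rose 19.6-fold, KLF6 9.54-fold and KLF5, an epithelial factor, from 212.4 ± 7.68 to 1126.8 ± 21.01 CPM (5.3-fold). Of 11 NF-kB subunits and inhibitors 7 rose and none fell: TNFAIP3, which encodes the inhibitor A20, rose 25-fold, NFKBIB 11.2-fold and NFKBIZ 5.03-fold.

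Feedback inhibitors of growth factor signalling held both kinds of change. Dual specificity phosphatases, which remove phosphate from MAP kinases, were higher in 8 of 19 and lower in 1. DUSP6 rose 22.2-fold from 1.47 ± 0.25 to 33.05 ± 0.39 CPM and DUSP4 8.65-fold from 57.84 ± 2.4 to 500.6 ± 17.31 CPM, whereas DUSP9 fell 4.09-fold. Of 8 Sprouty, Spred and ERRFI1 genes, which restrain RAS signalling and the EGF receptor, 6 rose, SPRY2 16.1-fold and ERRFI1 13-fold. SPRY1 and SPRY3 were not called and stood under 1 CPM in both groups. Of the 6 IER and GADD45 genes 5 rose, GADD45B 13.8-fold and GADD45A 8.48-fold, and IER5L read 38.39 ± 3.38 and 29.98 ± 4.24 CPM. TTP and regnase proteins, which destroy inducible mRNAs, rose in 4 of 7, ZFP36L1 3.65-fold and ZFP36 3.24-fold, and ZC3H12A (regnase-1) read 29.51 ± 0.66 and 24.12 ± 1.43 CPM without a call. Polo-like, salt-inducible and PIM kinases rose in 6 of 10. Within that list PLK2 rose 17.9-fold and PLK3 10.9-fold, both stress-inducible, and PLK1, the mitotic kinase, fell 5.17-fold from 186.3 ± 5.01 to 36.01 ± 1.71 CPM.

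**Figure D3:**
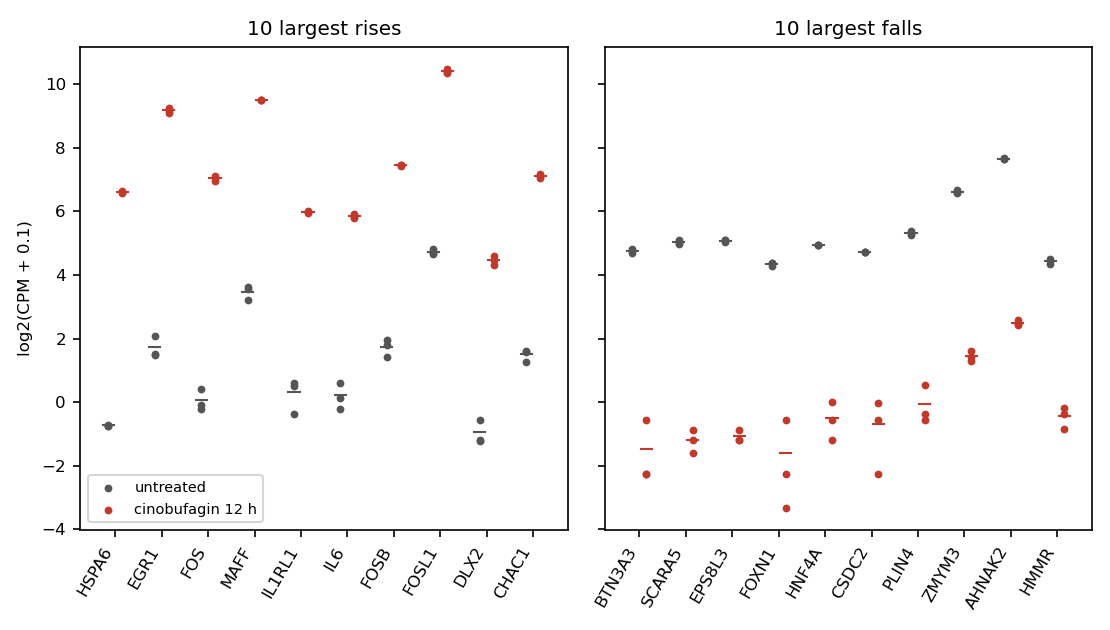
Level of each library as log2(CPM + 0.1), y axis, for the 10 genes with the largest rises (left) and falls (right) above a mean of 10 CPM. Grey points are the 3 untreated and red points the 3 treated libraries, and lines are means. No group overlaps another for any of the 20 genes, as their choice required.

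The largest falls above a mean of 10 CPM took transcripts to below 1 CPM in 8 of 10 cases. BTN3A3, a butyrophilin of the family that presents phosphoantigen to gamma-delta T cells, read 27.54, 27.96 and 25.77 CPM untreated and 0.11, 0.57 and 0.11 CPM at 12 h. SCARA5, a ferritin receptor, read 32.27, 34 and 31.57 CPM against 0.45, 0.34 and 0.23 CPM. EPS8L3, an EPS8-like actin regulator, read 32.6, 34.5 and 34.23 CPM against 0.34, 0.34 and 0.45 CPM. Thus transcripts near 30 CPM were left below 1 CPM in each treated library, with falls of 98.1-fold for BTN3A3 (log2 -6.62, SE 0.251, edgeR adjusted p = 4.47e-22), 92.8-fold for SCARA5 and 86.8-fold for EPS8L3. FOXN1, the thymic and skin forkhead factor, read 20.49, 20.74 and 19.47 CPM against 0.0, 0.11 and 0.57 CPM (84.9-fold). HNF4A, a nuclear receptor that drives many liver genes, read 30.53, 30.94 and 30.83 CPM against 0.34, 0.57 and 0.9 CPM (50-fold). CSDC2, an RNA-binding cold shock protein, read 26.55, 26.26 and 26.52 CPM against 0.89, 0.11 and 0.57 CPM (49-fold). These treated levels rest on few reads, so their folds are less precise than those of the risen genes. PLIN4, a lipid droplet coat protein, read 38.49, 39.52 and 41.68 CPM against 1.34, 0.57 and 0.68 CPM (45.4-fold). ZMYM3, a chromatin-associated zinc finger protein, read 102.0, 96.8 and 96.13 CPM against 2.35, 2.97 and 2.6 CPM (37.1-fold). HMMR, a spindle-associated hyaluronan receptor, read 19.99, 22.52 and 21.63 CPM against 0.78, 0.46 and 0.68 CPM (32.8-fold). AHNAK2, a giant scaffold protein, was the most abundant of these genes. It fell 36.3-fold from 198.6, 199.4 and 202.7 CPM to 5.37, 5.26 and 5.88 CPM.

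Several genes were listed in all libraries of one group and in none of the other. In all 3 untreated and no 12 h library 281 genes were listed, 38 of them at 1 CPM or more. The most abundant was TRIM31, a ubiquitin ligase of innate immunity, at 15.26, 15.13 and 13.67 CPM, which was at least 173-fold lower at 12 h against 3 counts over the group. By the same bound NFE2, a blood cell factor, was at least 47-fold lower, the vasoconstrictor gene EDN2 at least 46.1-fold lower and the kinase PAK6 at least 39.3-fold lower. The reverse pattern was scarcer, with 40 genes in all 12 h and no untreated library and 4 at 1 CPM or more. FCGR1A, an IgG receptor with near-identical gene copies that make its count uncertain, reached 2.35, 1.83 and 2.49 CPM, at least 20-fold higher. CLDN6, an embryonic claudin, and C11orf96 were at least 10.1-fold higher. TTC9 was at least 9.46-fold higher.

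In absolute terms the largest gain was that of SLC38A2, the osmotically and amino acid regulated neutral amino acid carrier. It rose 11.5-fold from 283.1, 268.8 and 267.6 CPM to 3069.6, 3163.7 and 3178.9 CPM. SLC7A5, the leucine carrier LAT1, went from 1371.1 ± 17.22 to 3437.3 ± 75.33 CPM (2.51-fold), and its partner SLC3A2 rose 3.58-fold. TEAD1, the DNA-binding partner of YAP, rose 7.24-fold to 1966.1 ± 51.84 CPM, and CCN1 and AMOTL2, both known YAP and TEAD targets, 15.6-fold and 15.3-fold. EPHA2, an ephrin receptor, rose 17.9-fold, ABL2, a kinase of the actin cytoskeleton, 13.5-fold, and PPP1R15A, the GADD34 subunit that directs dephosphorylation of eIF2alpha, 31.9-fold from 43.68 ± 1.96 to 1391.8 ± 46.78 CPM. HSPA1A rose 4.17-fold to 1747.9 ± 4.17 CPM, but its reads cannot be fully told apart from those of its near-identical copy HSPA1B (2.92-fold).

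The largest loss in CPM was that of ASS1, the argininosuccinate synthase of the urea cycle, which fell from 1575.5, 1621.3 and 1658.2 CPM to 649.8, 637.3 and 642.8 CPM (2.52-fold). CCT3, a subunit of the chaperonin that folds actin and tubulin, fell 3.16-fold from 649.0 ± 10.15 to 205.6 ± 1.83 CPM. DAG1, the matrix receptor dystroglycan, fell 10.2-fold from 364.1 ± 13.02 to 35.79 ± 2.08 CPM. The intermediate filament gene VIM fell 2.34-fold, the microtubule-associated MAP4 3.11-fold, and FDFT1, the squalene synthase, 3.82-fold. EHBP1L1 fell 5.35-fold, the lysophosphatidylcholine acyltransferase LPCAT1 6.69-fold, NUCKS1, a chromatin protein, 3.09-fold and the condensin subunit NCAPD2 4.37-fold.

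The pump that the drug binds changed at the mRNA level. The beta subunits ATP1B3 and ATP1B1, which chaperone the catalytic subunit to the membrane, rose 3.87-fold and 2.2-fold. Of 8 tested subunits 3 were higher (37.5%, against 16.8% of all genes) and 1, FXYD3, lower (12.5%, against 27.1%). FXYD3 was scarce, at 2.23 ± 0.66 and 0.49 ± 0.18 CPM, and 4 of the 8 had a mean of at least 10 CPM. ATP1B2 read 4.26 ± 0.21 and 8.52 ± 0.96 CPM without passing the 2-fold limit. With plain library size the log2 change of ATP1B1 was 0.72, which ended its call, while ATP1B3 stayed above 2-fold. Calcium pumps divided, with 2 of 7 higher (28.6%) and 4 lower (57.1%), and by limma on log2(FPKM + 1) 1 and 2. Of the lowered ones ATP2A3 read 9.05 and 0.68 CPM, ATP2A1 3.77 and 1.69 CPM and ATP2C2 0.70 and 0.04 CPM. The plasma membrane pump ATP2B1 rose 3.36-fold and the endoplasmic reticulum pump ATP2A2 2.44-fold, while ATP2B4 fell 12-fold from 116.6 ± 4.27 to 9.68 ± 0.69 CPM. None of 10 sodium-calcium and sodium-proton exchangers rose and 3 fell, SLC9A8 3.09-fold.

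LRRC8 proteins form the anion channel that opens when cells swell, with LRRC8A as the obligatory subunit. LRRC8A rose 3.82-fold from 64.07 ± 0.98 to 244.6 ± 2.9 CPM and LRRC8C 50.4-fold from 0.36 ± 0.17 to 18.87 ± 1.78 CPM. LRRC8B fell 2.56-fold, LRRC8D read 47.66 ± 1.5 and 24.9 ± 1.11 CPM and LRRC8E 14.3 ± 2.36 and 14.4 ± 1.26 CPM, neither called. Of 8 cation-chloride cotransporters, which move potassium, sodium and chloride together, SLC12A4 rose 2.25-fold, and SLC12A9 fell 3.19-fold and SLC12A3 9.69-fold. Potassium channel genes were higher in 6 of 40 and lower in 12, close to the shares of all genes.

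The V-ATPase, which acidifies lysosomes, was raised in 10 of 22 tested subunits and lowered in 2 (median log2 change 0.84). ATP6V1D rose 9.36-fold from 18.19 ± 2.58 to 170.2 ± 3.7 CPM, ATP6V1B2 5.37-fold, ATP6V0D1 5.18-fold and ATP6V0E1 5.01-fold. ABC transporters, export pumps of drugs and lipids, fell in 17 of 35 and rose in 5. ABCC10 fell 5.31-fold, ABCC5 4.63-fold, ABCC3 4.27-fold and ABCA7 4.09-fold, whereas ABCF1, a translation factor of that family, rose 2.51-fold. Amino acid carriers rose in 13 of 43 and fell in 10, and with plain library size in 8 and 11. Of 43 mitochondrial carriers 5 rose (11.6%) and 12 fell (27.9%, near the 27.1% of all genes), with SLC25A25, a calcium-dependent ATP carrier, raised 13.7-fold and SLC25A46 lowered 7.57-fold.

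Clustered histone genes, whose messages mostly carry a 3′ stem-loop and are not polyadenylated, rose in 44 of 46 tested members and fell in none (median log2 change 2.81), against 16.8% of all genes. Of 64 listed, the rest were too scarce to be tested. Only 10 of the 46 had a mean of at least 10 CPM. By limma on log2(FPKM + 1) 37 of these histone genes were higher, and in the 6 libraries alone 36. H3C4 rose 41-fold from 1.03 ± 0.3 to 42.81 ± 1.04 CPM and H2BC21 10.9-fold from 9.09 ± 2.08 to 99.71 ± 2.4 CPM. H2AC18 and H2AC19 held equal values, 4.68 ± 0.32 and 163.7 ± 8.6 CPM, so the values of these copies cannot be told apart. The libraries were made with oligo-dT beads, so only molecules caught on such beads were measured.

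Several families of RNA processing held more raised than lowered members. SR and TRA2 splicing factors rose in 6 of 14 and fell in none: TRA2A rose 4.3-fold, TRA2B 3.08-fold and SRSF1 2.78-fold, to 692.8 ± 32.58 CPM. With plain library size 3 of the 14 passed. Among 7 kinases that phosphorylate them CLK1 rose 8.98-fold, CLK4 3.65-fold and CLK3 2.27-fold, and CLK2 read 44.17 ± 0.23 and 26.38 ± 2.12 CPM without a call. RBM proteins rose in 17 of 40 and fell in 3, led by RBM24 (10.8-fold) and RBM4 (5.9-fold, from 102.1 ± 7.42 to 602.2 ± 27.26 CPM). Of 21 hnRNP proteins 5 rose, HNRNPA0 3.53-fold, and with plain library size 1. Cleavage and polyadenylation factors, which set the 3′ ends of mRNAs, rose in none of 14 and fell in 3, CPSF3, the endonuclease, 8.97-fold, CSTF3 6.77-fold and CPSF4 2.04-fold. With plain library size 6 of these 14 were lower.

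Transcription machinery moved in both directions. Of 15 RNA polymerase II subunits only POLR2E was called (2.23-fold higher). A list of P-TEFb and the super elongation complex, which release paused polymerase, also held HEXIM1 and 7SK proteins. Of its 12 tested members 5 rose and 2 fell, with CCNT2 raised 5.11-fold, ELL 4.8-fold, AFF4 4.38-fold and ELL2 4.08-fold. Mediator subunits rose in 10 of 30 and fell in 4: MED13L rose 7.08-fold and MED13 6.11-fold, both of its kinase module, and MED20 fell 4.25-fold. Integrator subunits, which end short transcripts, fell in 6 of 15 and rose in 2, INTS3 falling 5.41-fold. TFIID and other general factors divided into 14 higher and 11 lower of 42, and with plain library size into 7 and 16, with TAF13 raised 6.18-fold and TAF15 lowered 6.37-fold. Lysine methyltransferases and demethylases rose in 15 of 36 and fell in 5, though in 7 and 9 with plain library size. KDM6B and KDM6A, the H3K27 demethylases, rose 8.54-fold and 6.85-fold, and KDM1B, an H3K4 demethylase, fell 7.43-fold. Among 18 histone deacetylases and sirtuins SIRT1 rose 3.62-fold and 6 fell, HDAC6, a tubulin deacetylase, 6.65-fold.

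**Figure D4:**
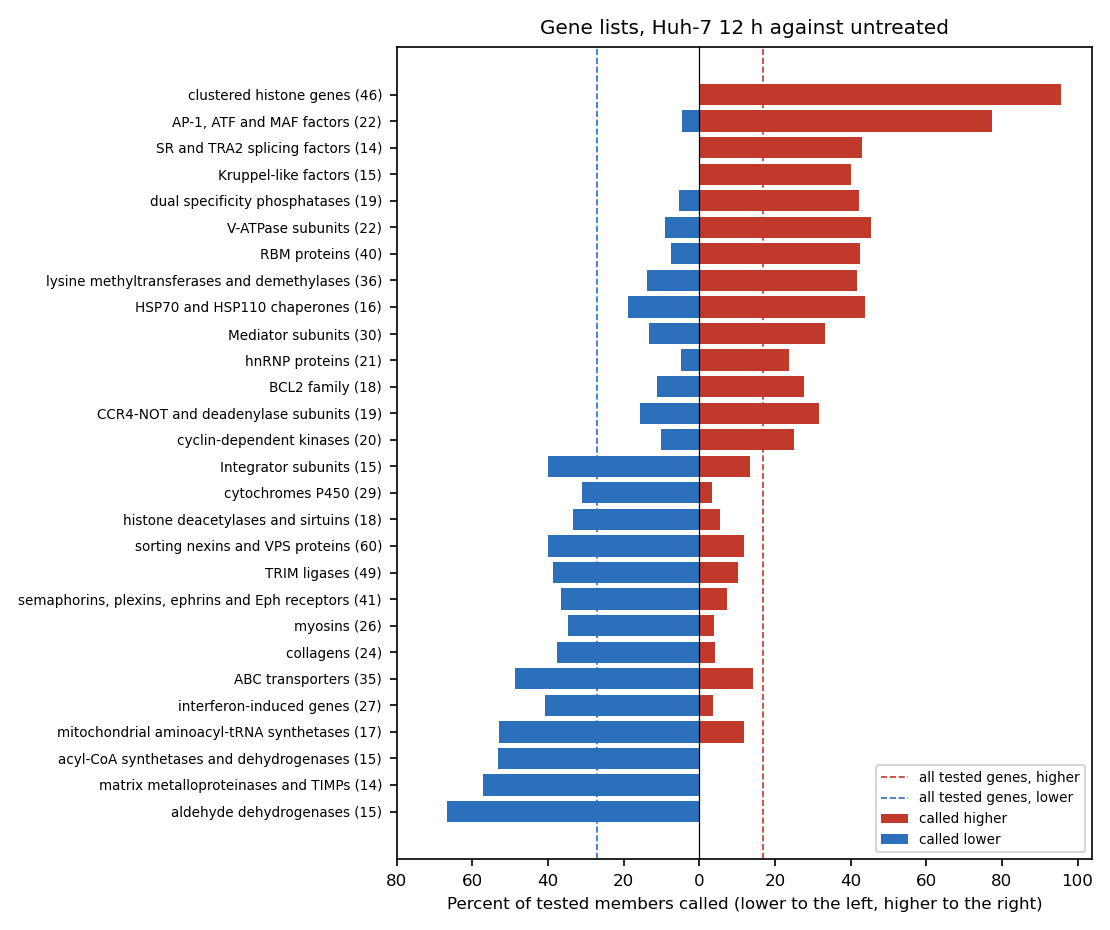
Percent of tested members called higher (red, to the right) and lower (blue, to the left) for 28 gene lists with at least 14 tested members, the 14 with the greatest excess of higher and the 14 with the greatest excess of lower calls; numbers in brackets are tested members. Dashed lines mark the shares of all tested genes, 16.8% higher and 27.1% lower. Clustered histone genes and AP-1, ATF and MAF factors lie farthest right and aldehyde dehydrogenases farthest left.

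None of 78 tested cytosolic ribosomal protein genes was called, their log2 changes lay between -0.87 and 0.71, and their median of 0.16 became -0.11 with upper-quartile scaling and -0.26 with plain library size, at which 4 were lower. Mitochondrial ribosomal proteins fell in 22 of 77 (28.6%, near the share of all genes) and rose in 3. MRPS26 fell 9.63-fold and MRPL10 5.61-fold. Mitochondrial aminoacyl-tRNA synthetases, which charge tRNAs in the organelle, fell in 9 of 17 and rose in 2, TARS2 falling 5.44-fold. The cytosolic synthetases divided: 4 rose, GARS1 3.26-fold and TARS1 2.94-fold to 1432.1 ± 23.51 CPM, and 6 of 20 fell, FARSB 6.36-fold. Translation initiation factors included EIF1, which selects the start codon, raised 5.62-fold to 1442.7 ± 49.86 CPM, and EIF2AK1, the heme-regulated eIF2alpha kinase, lowered 3.49-fold.

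Stress chaperones rose in part. Of 16 HSP70 and HSP110 chaperones 7 rose and 3 fell, and HSPH1, their nucleotide exchange factor, rose 3.55-fold. DNAJB1, the heat-inducible partner of HSP70, rose 5.34-fold from 115.4 ± 4.43 to 616.8 ± 30.28 CPM, BAG3 4.08-fold and the small heat shock protein HSPB8, which works with BAG3, 6.16-fold. The 40 DNAJ genes divided into 11 higher and 7 lower, and with plain library size into 10 and 13. Proteasome genes were rarely called, with 2 of 46 higher and 8 lower. Among them PSMB8, an immunoproteasome subunit, fell 6.85-fold and the ubiquitin receptor PSMD4 4.77-fold, while PSMC4 rose 2.64-fold. TRIM ligases fell in 19 of 49 and rose in 5, TRIM21, an antibody receptor, falling 6.07-fold. Sorting nexins and VPS proteins of endosomal transport fell in 24 of 60 and rose in 7: VPS33B fell 7.87-fold and VPS39 6.23-fold, and VPS37B rose 5.98-fold. RAB7A, the late endosome GTPase, rose 4.55-fold from 206.0 ± 7.26 to 936.8 ± 34.3 CPM, and RAB26 fell 8.71-fold.

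Cytokine and growth factor families held both raised and lowered members. Of 44 interleukins and their receptors 12 were higher and 12 lower (27.3% each, against 16.8% and 27.1% of all genes), and with plain library size 8 and 15. IL11, a gp130 cytokine, rose 21.8-fold from 38.02 ± 1.35 to 830.4 ± 23.48 CPM, and IL6ST, which encodes gp130, 4.71-fold. Of 12 chemokines 5 rose (41.7%) and none fell. Only 2 of the 12 had a mean of at least 10 CPM, and by limma on log2(FPKM + 1) 2 were higher. Of 13 EGF receptor family members and ligands 5 rose and 4 fell. Among the ligands AREG rose 40.3-fold, HBEGF 11.8-fold and EREG 10.3-fold. The receptor EGFR rose 3.98-fold to 718.4 ± 9.75 CPM, while ERBB3, a receptor without strong kinase activity, fell 9.07-fold from 61.25 ± 1.3 to 6.74 ± 0.66 CPM. DKK1, a secreted Wnt antagonist, rose 45.8-fold from 6.3 ± 0.22 to 289.0 ± 5.21 CPM and FZD10, a Wnt receptor, fell 10.1-fold. GDF15, a stress-induced hormone, rose 6.87-fold, TGFB2 5.86-fold, BMP2 5.79-fold and FGF2 3.69-fold. NOTCH3 fell 5.48-fold from 253.8 ± 7.05 to 46.26 ± 2.17 CPM, while NOTCH2 read 400.5 ± 11.7 and 400.6 ± 10.53 CPM. Of 22 TNF and TNF receptor genes 5 rose and 7 fell: TNFRSF12A, the TWEAK receptor, rose 8.77-fold and TNFRSF10D, a TRAIL decoy receptor, 7.46-fold, and TNFRSF1A fell 3.79-fold. Regulators of G-protein signalling fell in 8 of 11 (72.7%, against 27.1% of all genes), RGS19 4.46-fold, and RGS2 rose 4.72-fold. Only 2 of the 11 had a mean of at least 10 CPM. With library median scaling 5 were lower, and by limma on log2(FPKM + 1) also 5.

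Lineage factors also divided. Of 16 GATA, HNF and CEBP factors 6 rose and 5 fell, and with plain library size 4 and 6. Beside HNF4A, CEBPA, a hepatocyte and myeloid factor, fell 5.97-fold from 43.04 ± 4.69 to 7.19 ± 0.45 CPM and GATA4 4.32-fold, whereas GATA6 rose 3.96-fold and CEBPB, an inflammation-induced relative, 2.72-fold. Nuclear receptors other than NR4A held NR1H3, the oxysterol receptor LXRalpha, lowered 28.1-fold from 52.2 ± 0.96 to 1.84 ± 0.64 CPM, and PPARA, the fatty acid receptor, lowered 2.33-fold. RARA rose 5.51-fold and the clock repressors NR1D1 and NR1D2 3.89-fold and 3.31-fold. ETS1 rose 7.28-fold and ETS2 4.33-fold, and ELF3, an epithelial ETS factor, fell 2.14-fold. HOX and DLX genes fell in 12 of 35 (34.3%, against 27.1% of all genes) and rose in 4. With library median scaling 9 of the 35 were lower, and with plain library size 16. The 441 tested ZNF zinc finger genes had 71 higher and 120 lower, or 16.1% and 27.2%, near the background.

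Aldehyde dehydrogenases fell in 10 of 15 and rose in none (median log2 change -1.67), and 10 or 11 were lower with upper-quartile, plain library size and library median scaling. ALDH3B1 fell 7.21-fold from 95.97 ± 1.32 to 13.31 ± 1.61 CPM and ALDH1B1 4.07-fold. Acyl-CoA synthetases and dehydrogenases, which activate and oxidise fatty acids, fell in 8 of 15 and rose in none. ACSS2, which makes acetyl-CoA from acetate, fell 14.5-fold from 74.1 ± 2.28 to 5.09 ± 0.61 CPM and ACSL1 5.46-fold. Aldo-keto reductases fell in 5 of 11, AKR1C3, a steroid and prostaglandin reductase, 12.6-fold. Cytochromes P450 fell in 9 of 29 (31%, near the 27.1% of all genes) and rose in 1, and by limma on log2(FPKM + 1) 2 were lower. Complex I subunits of the respiratory chain fell in 7 of 36 (19.4%, below the 27.1% of all genes) and rose in 1, and NDUFV2 fell 4.19-fold. In serine and asparagine synthesis ASNS, the asparagine synthetase, rose 3.06-fold, MTHFD2 2.2-fold, and SHMT1 fell 5.13-fold. PIP5K1A, which makes phosphatidylinositol bisphosphate, rose 7.52-fold to 1055.6 ± 26.65 CPM, and the phosphatase MTMR4 fell 16.8-fold.

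Cell cycle genes did not move as one. CDKN1A, the p53-inducible inhibitor p21, rose 12.3-fold from 15.46 ± 0.62 to 190.8 ± 2.85 CPM, and CDKN2D 5.17-fold. CDKN1B read 40.64 ± 1.25 and 80.43 ± 5.89 CPM, just under the 2-fold limit. CDK2 rose 3.57-fold to 639.4 ± 5.42 CPM, CDK6 2.5-fold and CCNE1, the cyclin partner of CDK2, 3.29-fold, while the mitotic cyclin CCNB2 fell 3.27-fold and the cytokinesis kinesin KIF20A 17.3-fold from 161.3 ± 4.53 to 9.32 ± 1.22 CPM. Of 19 MCM, GINS and ORC replication proteins 5 rose, GINS2 4.01-fold and MCM7 2.67-fold, and 3 fell, ORC3 8.18-fold. Fanconi and RAD repair genes fell in 12 of 34 (35.3%, against 27.1% of all genes) and rose in 4. With plain library size 17 of the 34 were lower, and with library median scaling 12. XRCC1, a single-strand break repair scaffold, fell 8.16-fold and BRCA1 4.43-fold. In the BCL2 family, which sets the threshold of apoptosis, pro-death PMAIP1 (NOXA) rose 14.5-fold, and pro-survival MCL1 5.92-fold to 1032.9 ± 38.68 CPM and BCL2L1 4.34-fold, together 5 higher and 2 lower of 18.

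Among genes of the cell surface and of innate immunity, of 5 tested butyrophilins 4 fell, BTN3A1 25-fold and BTN3A2 6.07-fold beside BTN3A3, and BTN2A1 rose 2.93-fold. These genes are close copies of one another, so shared reads may have been divided among them. Interferon-induced genes fell in 11 of 27 and rose in 1. OAS1 and OAS3, antiviral enzymes that sense double-stranded RNA, fell 21.4-fold and 7.42-fold, the latter from 215.6 ± 2.53 to 29.06 ± 1.16 CPM. NLRC5, the activator of HLA class I genes, fell 7.07-fold and the peptide transporter TAP1 2.22-fold. Matrix metalloproteinases and TIMPs fell in 8 of 14 (57.1%, against 27.1% of all genes) and rose in none. MMP15 fell 20.1-fold from 49.39 ± 1.08 to 2.45 ± 0.82 CPM. Of the 14, 5 had a mean of at least 10 CPM, and by limma on log2(FPKM + 1) 4 were lower. Collagens fell in 9 of 24 (37.5%, against 27.1% of all genes) and rose in 1. With library median scaling 6 collagens were lower, and with plain library size 12. Semaphorins, plexins, ephrins and Eph receptors fell in 15 of 41 (36.6%) and rose in 3, EFNB2 rising 21.7-fold. With library median scaling 12 of the 41 were lower, and with plain library size 23. ITGA5, the fibronectin receptor subunit, rose 2.84-fold to 843.8 ± 17.22 CPM and LAMB3 2.9-fold, while ITGB4, the hemidesmosome integrin, fell 5.32-fold. RND3, a small GTPase that loosens the actin cytoskeleton, rose 13.7-fold from 21.71 ± 0.16 to 297.2 ± 12.07 CPM and RHOB 2.72-fold, and RHOV fell 14.5-fold.

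The deposited tables also hold a length for each gene in each library, which varies where a gene has several transcripts and is read here as RSEM's mean transcript length weighted by estimated abundance. It was compared by limma on log2 length in 5288 genes with more than 1 transcript, a mean of at least 10 CPM and at least 1 CPM in each of the 6 libraries. At an adjusted p under 0.05 and a change of at least 1.5-fold, 19 genes were shorter (0.359%) and 4 longer (0.0756%), all 23 without overlap between the groups. How many of all 5288 genes lacked overlap is not given here. Without the size limit 701 were shorter and 372 longer. Large changes of length were thus few. The genes named here by length were chosen after their values were seen. ERBB3 had lengths of 4386, 4549 and 4273 bases untreated and 1594, 1443 and 1430 bases at 12 h, in the same libraries in which its level fell 9.07-fold (log2 change in length -1.57, SE 0.131). RBBP6, a factor of the polyadenylation complex, read 5996, 6179 and 6148 bases against 2619, 2694 and 2713 bases. CSTF3, a cleavage factor whose level also fell, read 1695, 1552 and 1585 bases against 762, 768 and 855 bases. In these 3 genes the estimate moved to shorter transcripts at 12 h in each library.

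Others were the formin INF2, with 4400, 4366 and 4389 bases against 2393, 2403 and 2384, the ETS factor ELK4, with 9057, 9182 and 9005 bases against 5066, 5136 and 5014, and the Hippo kinase LATS1, with 6110, 5750 and 5882 bases against 3732, 3918 and 3900. The hematopoietic factor RUNX1 read 4797, 6333 and 6430 bases against 3632, 3638 and 3544, with 1 untreated library apart from its pair. Longer estimates were those of LRRC27, PDK3, NSL1 and BCKDHB, the last, a subunit of branched-chain keto acid dehydrogenase, with 2230, 2227 and 2161 bases against 3747 in each 12 h library. Of the 19 shortened genes 7 were also called lower in level, 3 higher and 9 not called. Without untreated replicate 3 the longer genes numbered 2, and at a mean of at least 50 CPM 7 genes were shorter and 0 longer. These lengths are model estimates and do not show which end of a transcript changed.

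**Figure D5:**
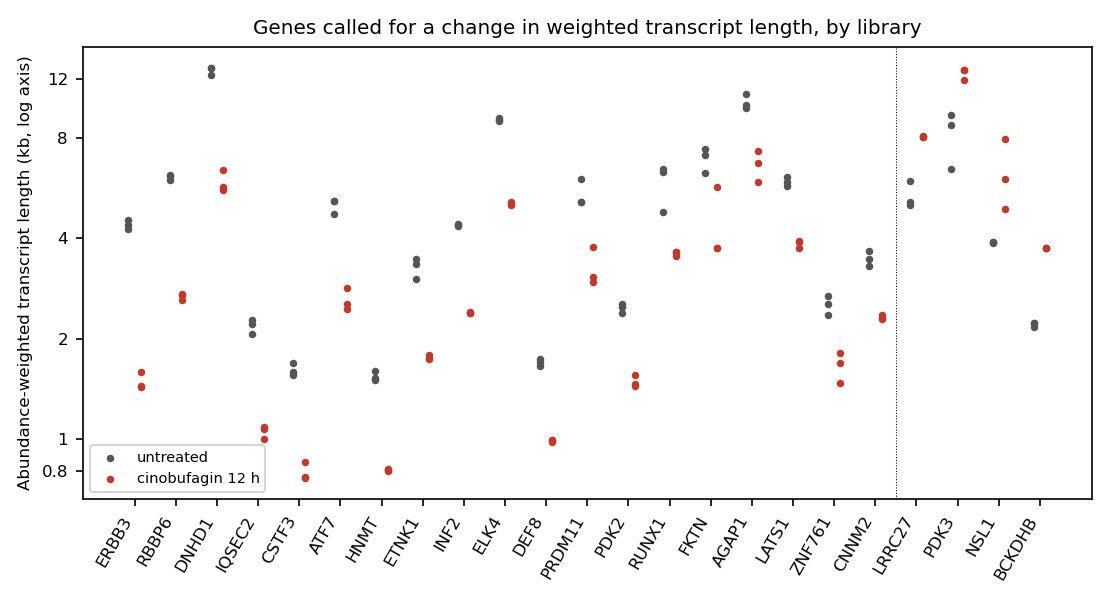
Abundance-weighted transcript length in kilobases (y axis, log scale) in each of the 3 untreated (grey) and 3 treated (red) libraries for the 23 called genes, with 19 shortened to the left of the dotted line and 4 lengthened to the right. The groups do not overlap for any of the 23 genes.

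Neighbouring genes were compared in pairs. Among same-strand neighbours, taken in RefSeq order, the downstream gene was higher in 25% of 484 pairs whose upstream gene rose at least 4-fold, in 21.3% of 1863 pairs with a raised upstream gene, in 16.4% with one not called and in 15.3% with a lowered one, against 16.9% of all 10990 pairs. Clusters of related genes stand next to each other and enter these shares, which carry no test.

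At 24 h, in 3 further Huh-7 libraries, most of the strongest rises were smaller. Mean levels at 12 and 24 h were 97.46 and 5.21 CPM for HSPA6, 576.7 and 35.26 CPM for EGR1, 131.8 and 11.96 CPM for FOS and 138.3 and 9.82 CPM for CHAC1. All 4 were called lower at 24 than at 12 h (edgeR adjusted p from 1.42e-32 for EGR1 to 3.74e-27 for FOS), and at 24 h all stood above the untreated means. MAFF kept 381.9 of 724.9 CPM and EPHA2 1213.9 of 1608.8 CPM. DLX2 read 22.05 and 19.62 CPM (adjusted p = 0.202). HSPA1A read 377.1 CPM at 24 h, beside 418.7 CPM untreated. Among the fallen genes AHNAK2 read 5.5 CPM at 12 h and 11.68 CPM at 24 h and NCAPD2 82.49 and 209.8 CPM, while ASS1 fell on from 643.3 to 224.5 CPM and HNF4A read 0.6 and 0.28 CPM (adjusted p = 0.0948). Both times share the untreated libraries.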

How the data were processed

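RNA of 16 libraries was sequenced after capture with oligo-dT beads and read on an Illumina HiSeq, per the labels' protocols. The expected counts and FPKM values were deposited by the authors as a table per library, and HISAT, Bowtie2, RSEM and hg19 are named in the submitters' processing notes, with versions and strand setting not given in the sources used here. Tables list genes above 0, and an unlisted gene was set to 0. Of 16697 identifiers 16665 were named.

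Expected counts, 31.1% to 32.3% of them not whole, were rounded to whole numbers. The main test was that of edgeR 4.0.16 (R 4.3.3). The filter filterByExpr took out 3064 genes (0.0231% of counts), libraries were scaled by TMM, and a quasi-likelihood model had 1 coefficient for each of 6 groups, with 10 residual degrees of freedom. Alternatives used DESeq2 1.42.0 and limma 3.58.1 on log2(FPKM + 1). The common biological coefficient of variation was 0.0318, and replicate libraries correlated at 0.997 or more. Whether each library had its own culture is not in the labels, and p-values rest on a spread between libraries that may be technical only. Library totals limit precision as given with the results.

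Members and the 109 gene lists were chosen with earlier results of these data known. Named genes were the 10 largest rises and falls at a mean of at least 10 CPM without overlap, the 10 largest gains and losses in CPM, 5 genes listed in 1 group only in each direction, and up to 4 called list members per direction at 10 CPM or more, or any member of a list with 8 or fewer tested. The lengths and motifs were chosen after values were seen. The scripts were tested on simulated data. Some genes that the rule names are not reported here.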

Additional observations from a re-analysis of the deposited data

Results flagged for a closer look

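The 20 genes with the largest rises and falls were compared with the other line, HepG2, by an interaction term of the same edgeR model. Those that differed at an adjusted p below 0.05 are named here. The 20 were chosen by their Huh-7 change, which also enters the difference, so a smaller change in HepG2 was favoured in advance. The share of all tested genes that differed is not given here. HepG2 had a single untreated library, taken to vary like the libraries of the other groups. The name HepG2 is that of the labels. In its untreated library HNF4A read 0.60 CPM and CEBPA 4.06 CPM, and most other hepatocyte markers are not given here. Values are the HepG2 log2 change at 12 h minus that of Huh-7. The difference was -10.02 for HSPA6 (adjusted p = 2.98e-06), where HepG2 stood under 1 CPM, -7.85 for CHAC1 (1.13e-28), which rose in Huh-7 and fell in HepG2, and -5.97 for IL1RL1 (0.0045), which stood at 0.17 and 0.15 CPM in HepG2. It was -5.20 for EGR1 (3.03e-13), -4.78 for FOS (8.94e-16), -3.10 for DLX2 (7.43e-07), -2.72 for FOSB (7.03e-05), -2.69 for FOSL1 (1.06e-10) and -1.67 for MAFF (1.11e-12), all called higher in both lines. IL6 alone among the rises gained more in HepG2, by 2.01 (2.33e-05). Among the falls the difference was 4.16 for PLIN4 (7.32e-05), 3.92 for HMMR (2.12e-12), 1.91 for BTN3A3 (0.00536) and 1.49 for ZMYM3 (1.17e-06). PLIN4 stood at 0.78 CPM in untreated HepG2 and 0.30 CPM at 12 h, so little fall could be measured there. ASNS, CHAC1, GDF15, ID1, RGS2 and UBE2V2 were called in opposite directions in the lines. NOTCH3 was too, but it was listed at 0 in the untreated HepG2 library and read 0.33 CPM at 12 h, near the 3-count bound, which shows no opposite response. Groups of 3 libraries were not tested for a library far from the others.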

How the results depend on the processing

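The counts of 2295 higher and 3698 lower genes depended on the settings. Higher genes numbered 1336 with plain library size, 1097 with limma on log2(FPKM + 1), 5262 with adjusted p alone and 602 at 4-fold. Lower genes numbered 2149 at a mean of at least 10 CPM, 6151 with adjusted p alone and 1760 at 4-fold. The cause was not tested, beyond the limits themselves admitting more or fewer genes. DESeq2 gave 2265 and 3603, DESeq2-type size factors 2291 and 3709, the 6 libraries alone 2325 and 3260, and robust dispersions, added after seeing the data, 2287 and 3690. Leaving out 1 library gave 2231 to 2315 higher and 3644 to 3740 lower. Over 9077 genes, the deviations of same-numbered untreated and 12 h libraries from their own group means correlated at 0.012, 0.004 and -0.081. The numbers were therefore not taken as pairs, and a replicate block gave 2294 and 3689. None of 585 named genes reversed, and 482 of 545 calls held with plain library size and 457 with limma. List counts moved by over 1.5 times in 67 of 218 cases with plain library size and 24 with library median scaling, and the median of 44 of 109 lists changed sign over the 5 scalings. At a mean of at least 50 CPM, 7 genes were shorter and 0 longer (these alternatives too were added after seeing the data), and leaving out 1 library gave 17 to 20 shorter and 2 to 6 longer, the lowest without untreated replicate 3. Genes near the limit of 0.304 to 0.314 CPM cannot be followed further down.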
